A study of Mus musculus with 9 samples.

Results

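The nuclear encoded subunits of the mitochondrial respiratory chain are the genes described here, across 9 RNA-seq libraries of mouse adipose tissue. They were the protein-coding genes of the count table whose names start with Nduf (leaving out the Ndufaf assembly factors), Uqcr, Atp5, Cox4i, Cox5, Cox6, Cox7 or Cox8, together with Sdha, Sdhb, Sdhc, Sdhd, Cyc1 and Cycs. The rule uses names alone and found 66 of the 3958 genes in the table. Of these, 26 belong to complex I, 4 to complex II, 9 to complex III, 12 to complex IV and 14 to complex V, and Cycs is the mobile carrier cytochrome c. Ndufa4, named for complex I, was counted in complex IV, where its protein is known to sit.

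The series, on electroacupuncture (EA) in mice made obese by a high-fat diet (HFD), names a normal diet (ND) group, an HFD group and an HFD group that also received EA. Every library is labelled as adipose tissue from a male of strain C57BL/6J, sampled on day 21, and no genetic change, age or fat depot is named. The CPX libraries (numbers 4, 6 and 8) and the MPX libraries (numbers 2, 5 and 7) carry no treatment label, and the labels do not say which of these prefixes is ND and which is HFD. The EA libraries (numbers 5, 7 and 8, titled APX) are labelled with the treatment, so the high-fat diet of EA is known only from the design text. Whether the libraries come from separate mice is not stated, so p-values measure only the spread between these libraries, which may be technical. The extraction text speaks of retinas, but 0 of 12 retina markers were in the table, against 18 of 18 adipocyte markers.

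Complex I takes electrons from NADH, complex II from succinate, and both pass them by ubiquinone to complex III, by cytochrome c to complex IV and so to oxygen. The proton gradient that complexes I, III and IV build drives ATP synthesis at complex V. Most subunits are encoded in the nucleus and imported, while a few core subunits of complexes I, III, IV and V are made from mitochondrial DNA. White fat cells carry fewer mitochondria than brown ones, and their respiratory chain serves lipid synthesis and fatty acid oxidation as well as ATP supply.

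RefSeq promoter windows (build GRCm38.p6, from 250 bases before to 50 bases after a start site) matched 52 of the 66 genes by symbol. Regulators known to act on these genes are nuclear respiratory factor 1 (NRF1), the ETS family factor GABPA, YY1 and the estrogen-related receptors (ERR). On either strand, the NRF1 core GCGCATGC was in 9 of the 52 windows (17.3%, against 3.05% of all 27025 genes with a window and 6.13% of the genes in the count table that have one). The ETS core CCGGAAG was in 14 (26.9%, against 9.93% and 18.7%), and its form ACTTCCGG, which always contains that core on the other strand, was in 5 (9.62%, against 4.31% and 8.09%). The YY1 core AAGATGGCG was in 5 (9.62%, against 1.64% and 4.08%) and the ERR site TCAAGGTCA in 2, Atp5g3 and Sdhd (3.85%, against 0.466% and 0.257%). CCAAT was in 23 (44.2%, against 41.1% and 41.2%). A match is a description of the letters and was not tested as a site.

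The 250 bases before the start are shown for 4 genes. Atp5g2 and Atp5g3 encode the same membrane ring protein of complex V and differed in pattern over the libraries, Cycs is the classic gene with an NRF1 match, and Cox7a2l departed most from the other subunits. Capitals mark the NRF1 core (Atp5g2, where it lies on both strands with an overlap, and Cycs) and the ERR site on the other strand (Atp5g3). None of these motifs, CCAAT included, was found in the window of Cox7a2l, and CCAAT is not marked in the others. The Atp5g2 window lies inside the gene as the count table bounds it.
Atp5g2 promoter, chr15:102671048-102671297, minus strand: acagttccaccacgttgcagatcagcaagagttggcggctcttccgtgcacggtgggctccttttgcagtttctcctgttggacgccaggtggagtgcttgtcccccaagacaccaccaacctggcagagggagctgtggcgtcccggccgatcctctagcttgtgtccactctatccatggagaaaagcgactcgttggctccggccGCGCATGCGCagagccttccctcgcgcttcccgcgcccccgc
Atp5g3 promoter, chr2:73911327-73911576, minus strand: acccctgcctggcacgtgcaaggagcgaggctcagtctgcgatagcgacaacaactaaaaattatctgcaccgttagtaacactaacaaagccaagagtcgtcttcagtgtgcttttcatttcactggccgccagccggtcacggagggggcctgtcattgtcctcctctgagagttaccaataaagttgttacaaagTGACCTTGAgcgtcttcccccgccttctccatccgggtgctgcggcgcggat
Cycs promoter, chr6:50566570-50566819, minus strand: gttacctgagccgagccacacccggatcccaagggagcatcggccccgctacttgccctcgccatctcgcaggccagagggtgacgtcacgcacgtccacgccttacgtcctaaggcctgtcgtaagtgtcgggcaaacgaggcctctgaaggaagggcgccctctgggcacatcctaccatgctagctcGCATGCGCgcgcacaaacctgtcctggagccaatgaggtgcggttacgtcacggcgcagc
Cox7a2l promoter, chr17:83514334-83514583, minus strand: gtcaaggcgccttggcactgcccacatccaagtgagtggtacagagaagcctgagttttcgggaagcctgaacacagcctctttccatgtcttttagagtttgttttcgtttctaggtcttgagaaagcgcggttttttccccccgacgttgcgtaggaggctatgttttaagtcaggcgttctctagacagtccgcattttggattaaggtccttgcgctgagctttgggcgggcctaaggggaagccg

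Levels are CPM values, counts scaled to the sum of the counts listed for a library after trimmed mean of M values (TMM) scaling, and groups are read in the order CPX 4, 6 and 8, then MPX 2, 5 and 7, then EA 5, 7 and 8. The table lists 12115183 to 14208853 counts per library, which are not library depths because only the most abundant genes are in it. Every one of the 66 subunits had at least 385 counts in each library, so counting error is small beside the spread between the CPX libraries. In MPX, where the libraries lay closest together, it may be a larger part of the spread. TMM factors were 0.981 to 1.10 in 8 libraries and 0.753 in CPX 4. Spearman correlations across genes between libraries of a group were 0.873 to 0.950 in MPX and 0.795 to 0.902 in EA, against 0.187 (CPX 4 and 6), 0.307 (CPX 6 and 8) and 0.724 (CPX 4 and 8) in CPX. In CPX 6 the 18 adipocyte markers lay 2.40 below and 12 B cell markers 4.44 above their means over 9 libraries (log2). CPX 4 and CPX 6 thus stood apart from the other libraries, and the medians of the subunits and of the mitochondrial lists against CPX are given with and without them.

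The summed level of the 66 subunits was 32450, 9028 and 11950 CPM in CPX, 14290, 13100 and 14530 CPM in MPX and 15650, 11550 and 11140 CPM in EA. CPX 4 therefore had more than any other library and CPX 6 the least, and the MPX and EA values lay between them. As a share of the listed counts, before TMM scaling, the subunits took 2.44%, 0.971% and 1.17% in CPX, 1.45%, 1.32% and 1.45% in MPX, and 1.63%, 1.26% and 1.22% in EA. In bulk tissue, fewer cells of a type and less RNA per cell cannot be told apart.

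**Figure D1:**
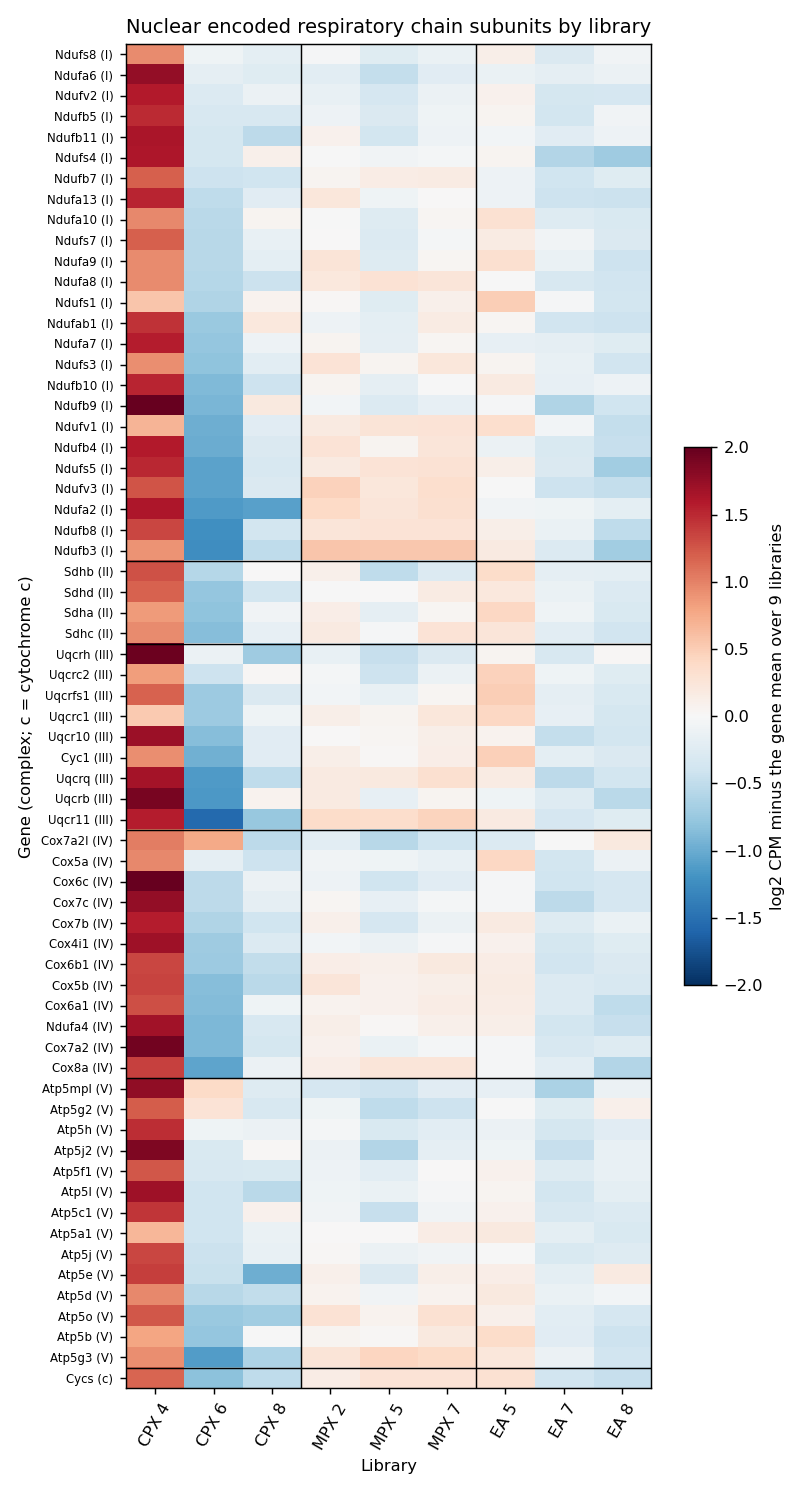
Level of 65 of the 66 subunits (vertical axis, complex in brackets) in each library (horizontal axis), as log2 CPM minus the gene's mean over 9 libraries, with the colour scale running from -2 to 2. The CPX 4 column is the highest for each gene drawn, and of all 66 subunits CPX 6 is the lowest library for 49.

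CPX 4 was the highest library for 66 of 66 subunits, whereas it was the highest for 27.1% of all genes. CPX 6 was the lowest for 49 of 66, against 33.1% of all genes, and the lowest library of the others was MPX 5 (6 subunits), CPX 8 (5), EA 7 (5) or EA 8 (1). The level in CPX 4 over the median of the other 8 libraries ran from 1.45-fold for Uqcrc1, a core protein of complex III, to 5.51-fold for Ndufb9, an accessory subunit of complex I, with a median of 2.68-fold. Genes are in the table by their total over 9 libraries, CPX 4 included, down to 8471 counts. Near that end, CPX 4 gave 2122 of the 8769 counts of Ndufb4 and 3722 of the 10564 of Ndufb9. Some subunits may thus be listed only because CPX 4 is high, which favours high values in these counts and folds. The median SD of log2 CPM within a group was 1.07 in CPX, 0.25 in EA and 0.11 in MPX for the subunits, and 0.63, 0.22 and 0.16 for all genes.

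The high level in CPX 4 was not equal over the chain. Its median over the other libraries was 2.81-fold for complex I, 2.21-fold for complex II, 3.02-fold for complex III, 3.06-fold for complex IV and 2.67-fold for complex V. The catalytic proteins Ndufs1 (1.47-fold), Ndufv1 (1.53-fold), Atp5a1 (1.66-fold), Atp5b (1.72-fold) and Sdha (1.90-fold) were at the low end. The ring protein gene Atp5g3 (1.815-fold) and the accessory subunit Ndufb3 (1.896-fold) lay there too. At the high end, after Ndufb9, stood the small proteins Cox6c (5.21-fold), Uqcrh (4.52-fold) and Cox7a2 (4.36-fold). Ndufv2 of complex I (3.485-fold) and Atp5c1 of complex V (3.042-fold) lay above the median of their complexes. These genes were picked after their values were seen, and the part of role or protein size was not tested.

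Gene length moved with this pattern, and its part in it was not tested. The median length of the 66 genes in the authors' annotation was 1870 bases, against 5141 for all genes, and with the table cut into 4 equal classes by length, 51 of them lay in the shortest class. In that class the CPX 4 level minus the mean of the other 8 libraries had a median of 0.64 (log2) over all 990 genes and 1.54 over the 51 subunits. In the next class the medians were 0.12 over all genes and 1.32 over 12 subunits, and in the third -0.16 over all genes and 1.62 over 3 subunits. In each class that held any, the median of the subunits was above that of all genes, which include them. The classes are wide, the shortest running from 57 to 3136 bases. Across genes, the Spearman correlation between length and the CPX 4 difference was -0.36 over the subunits and -0.46 over all genes, as a description.

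**Figure D2:**
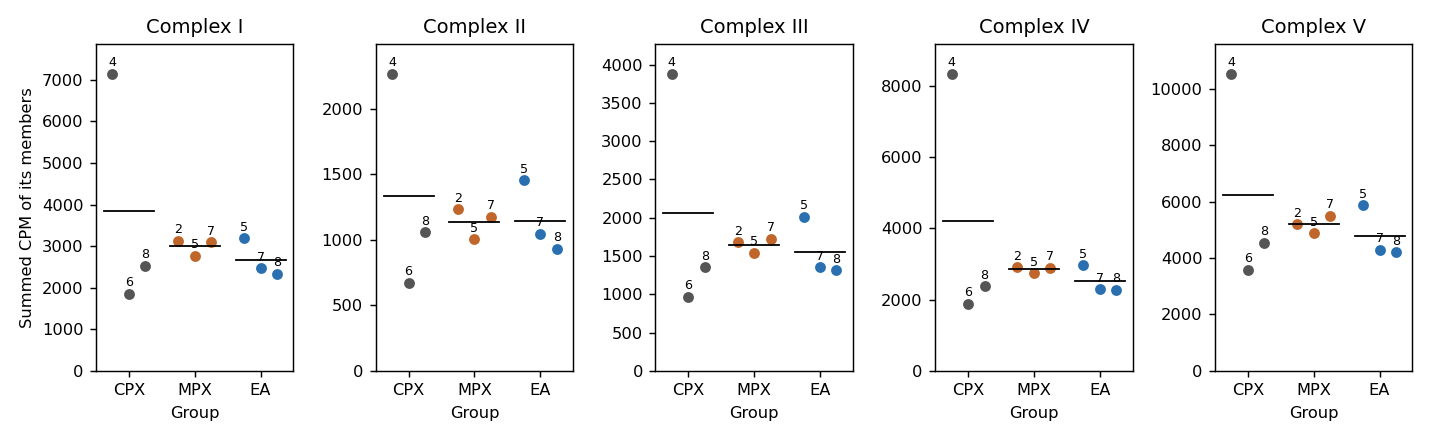
Summed CPM of the subunits of each complex (vertical axis, from 0) by group (horizontal axis), with 1 point per library marked by its replicate number and a line at the group mean. In each complex CPX 4 lies far above and CPX 6 below the other 7 libraries.

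EA was compared with MPX to ask how the treated libraries differed from the group that does not hold the libraries standing apart. The subunits were slightly lower in EA on balance, with the lowest medians in complexes I and IV, but no subunit passed the test. The median log2 difference was -0.13 over 66 subunits, with 44 lower (66.7%, against 48.6% of all genes) and 22 higher, beside a median of 0.01 over all genes. By complex the medians were -0.19 for I, -0.03 for II, -0.13 for III, -0.20 for IV and -0.04 for V. With edgeR, 0 of 66 subunits and 0% of all genes passed an adjusted p of 0.05, and the smallest adjusted p of a subunit was 0.775. At an unadjusted p under 0.05, 0 subunits were lower (3.01% of all genes) and 0 higher (2.1% of all genes). DESeq2 called 0 subunits and 1.24% of the genes it tested. These p-values rest on a spread that the CPX libraries share in. Fitted on EA and MPX alone, the median was -0.16 with 49 of 66 lower, beside -0.02 over all genes with 2057 of 3958 lower. Minus the all-gene median, that of the subunits was -0.141, against -0.142 in the fit of 9 libraries. EdgeR called 0 subunits and 84 genes (2.12% of all) on these groups alone. The smallest adjusted p of a subunit in that fit was 0.068, for Ndufa2 (log2 difference -0.47, SE 0.11). At an unadjusted p under 0.05, 13 subunits were then lower (19.7%, against 15.9% of all genes), 10 of them in complex I, and 0 were higher (16.2% of all genes). Without CPX 4 alone, 7 were lower (10.6%, against 6.42% of all genes) and 0 higher (3.99% of all genes).

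Markers of other cell types moved in the same comparison, and their part in the result was not tested. Of 18 adipocyte markers 15 were lower in EA (median log2 difference -0.49), and the list's mean against its 9-library mean was 0.24, 0.13 and -0.50 in EA, below each of 0.32, 0.36 and 0.58 in MPX. The fall was not particular to that list: 10 of 11 endothelial markers (median -0.28) and 10 of 12 fibroblast and matrix markers (median -0.39) were also lower in EA. All 12 listed macrophage markers (median 0.63) and all 12 B cell markers (median 6.04) were higher in EA. So were 73 of 74 cytosolic ribosomal proteins (median 0.71), with 0 genes of these lists past the adjusted threshold.

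All 3 EA libraries lay below all 3 MPX libraries for 14 subunits (21.2%), close to the 19% of all genes that did so. The reverse, EA above MPX without overlap, held for 1 subunit (1.52%), Ndufa6, against 21.5% of all genes. The 14 were Ndufa2, Ndufa8, Ndufa13, Ndufb3, Ndufb4, Ndufb7, Ndufb8, Ndufs3, Ndufs5 and Ndufv3 of complex I, Uqcrq and Uqcr11 of complex III, Cox8a of complex IV and Atp5g3 of complex V, listed because their ranges do not overlap. EA 5 differed from its group: it lay below all MPX libraries for 14 subunits and above them for 37. EA 7 lay below for 49 and above for 2, and EA 8 below for 45 and above for 7. The same counts were not made over all genes, so these describe the subunits only. Without EA 5 the median difference was -0.28, with 59 of 66 subunits lower, against 1979 of all 3958 genes. Without EA 7 it was -0.056 (37 lower, against 1905 of all genes) and without EA 8 -0.055 (39 lower, against 1927 of all genes). The size of the median therefore depended on which EA libraries were used.

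Ndufb3, an accessory subunit in the membrane arm of complex I (chr1:58586384-58595964, plus strand, mm10), had the smallest unadjusted p of the subunits in complex I. Its level was 109.3, 108.2 and 108.8 CPM in MPX and 84.4, 61.9 and 46.2 CPM in EA, beside 139, 31.7 and 52.5 CPM in CPX. The MPX libraries were nearly equal and each EA library lay below them. At 1541, 1401 and 1538 counts in MPX, counting error alone would usually give a wider spread, so this closeness is not a measure of precision. The group means were 108.8 ± 0.566 (SD, n = 3) in MPX and 64.2 ± 19.2 (SD, n = 3) in EA, which is -0.76 on the log2 scale (SE 0.49, adjusted p = 0.775 by edgeR). Ndufa8, an accessory subunit on the intermembrane face, gave 90.5, 95.1 and 92.7 CPM in MPX and 77.7, 62.7 and 59.7 CPM in EA, which is -0.48 on the log2 scale (SE 0.38, adjusted p = 0.775 by edgeR).

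In complex II, the 4 subunits of succinate dehydrogenase showed no common direction between EA and MPX, with none of them free of overlap. The flavoprotein Sdha had 666, 533 and 624 CPM in MPX and 811, 573 and 492 CPM in EA, a log2 difference of 0.04 (SE 0.43). The iron-sulfur subunit Sdhb had 213, 140 and 164 CPM in MPX and 256, 176 and 173 CPM in EA (log2 difference 0.23, SE 0.45). The membrane anchors Sdhc and Sdhd differed by -0.24 and -0.11 (log2), with SEs of 0.42 and 0.46. In each of these 4 genes EA 5 was the highest EA library.

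Complex III split by subunit. The core protein Uqcrc2 was 211, 162 and 200 CPM in MPX and 298, 203 and 182 CPM in EA, a log2 difference of 0.25 (SE 0.35). Uqcr11, the smallest subunit, was 111.5, 110.5 and 118 CPM in MPX and 98.02, 68.6 and 73.4 CPM in EA, a log2 difference of -0.50 (SE 0.69). The Uqcr11 ranges did not overlap and those of Uqcrc2 did. The electron-carrying Cyc1 (cytochrome c1) and Uqcrfs1 (the Rieske iron-sulfur protein) differed by -0.05 and 0.10, and the core protein Uqcrc1 by -0.13. Cycs, the next carrier in the chain, had 139, 152 and 152 CPM in MPX and 155, 96.0 and 91.1 CPM in EA, so that EA 5 lay above and EA 7 and EA 8 below MPX (log2 difference -0.37, SE 0.50).

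In complex IV, Cox8a had 455, 491 and 487 CPM in MPX and 407, 356 and 275 CPM in EA, a log2 difference of -0.47 (SE 0.54). Cox4i1, the regulatory subunit in its widely expressed form, differed by -0.09 (SE 0.58), Cox6a1 by -0.29 (SE 0.50), Cox6b1 by -0.30 (SE 0.51) and Ndufa4 by -0.29 (SE 0.59). Cox7a2l, known as a supercomplex assembly factor for complexes III and IV, gave the largest positive difference of any subunit, 0.37 (SE 0.37, edgeR adjusted p = 0.783). The partner isoforms Cox4i2, Cox6a2, Cox6b2, Cox7a1 and Cox8b, several of them typical of muscle or brown fat, were not analysed here.

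For complex V the catalytic pair Atp5a1 and Atp5b (the alpha and beta subunits) differed by -0.14 (SE 0.35) and -0.15 (SE 0.44) between EA and MPX. Their ratio, Atp5a1 over Atp5b, was 0.597, 0.607 and 0.598 in MPX and 0.545, 0.629 and 0.668 in EA, against 0.565, 0.797 and 0.569 in CPX. The ratio lay between 0.545 and 0.668 in 8 libraries, and CPX 6 stood apart. Atp5g2 and Atp5g3 pointed in opposite directions, with log2 differences of 0.28 (SE 0.36) and -0.43 (SE 0.49), neither past the test.

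MPX against CPX and EA against CPX share the 3 CPX libraries, and both turn on which of these are used. With all 9 libraries, the subunits were lower in MPX than in CPX by a median of -0.37 (57 of 66 lower, 86.4%, against 59.3% of all genes and an all-gene median of -0.11). EA minus CPX had a median of -0.55 (65 of 66 lower, 98.5%, against 61% of all genes and an all-gene median of -0.09), the exception being Uqcrc1 at 0.01. Without CPX 4 the signs turned: the medians were 0.45 for MPX minus CPX (59 higher, 7 lower) and 0.31 for EA minus CPX (57 higher, 9 lower). Without CPX 6 they were -0.67 and -0.89, and with CPX 8 as the single CPX library they were 0.28 and 0.11. Of the fits with 1 library left out, only the one without CPX 4 turned the sign of these medians. With CPX 4 kept, a fit with the numbers in the titles as a replicate block also turned MPX minus CPX, to 0.019.

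By complex, the medians of MPX minus CPX were -0.35, -0.18, -0.36, -0.59 and -0.51 for I to V, and those of EA minus CPX were -0.56, -0.29, -0.50, -0.64 and -0.53. Without CPX 4 they were 0.44, 0.53, 0.54, 0.50 and 0.30 for MPX minus CPX and 0.29, 0.41, 0.38, 0.32 and 0.20 for EA minus CPX. The order of the complexes changed with that library, complex II lying nearest to 0 with it and complex V without it. Scaling by column sums alone, without TMM factors, moved the median of all genes by 0.10 for EA minus MPX, 0.11 for MPX minus CPX and 0.19 for EA minus CPX. On that scale the subunits lower were 35, 40 and 47 of 66 in these comparisons, and their medians minus those of all genes were -0.15, -0.17 and -0.31, against -0.14, -0.26 and -0.46 with TMM.

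**Figure D3:**
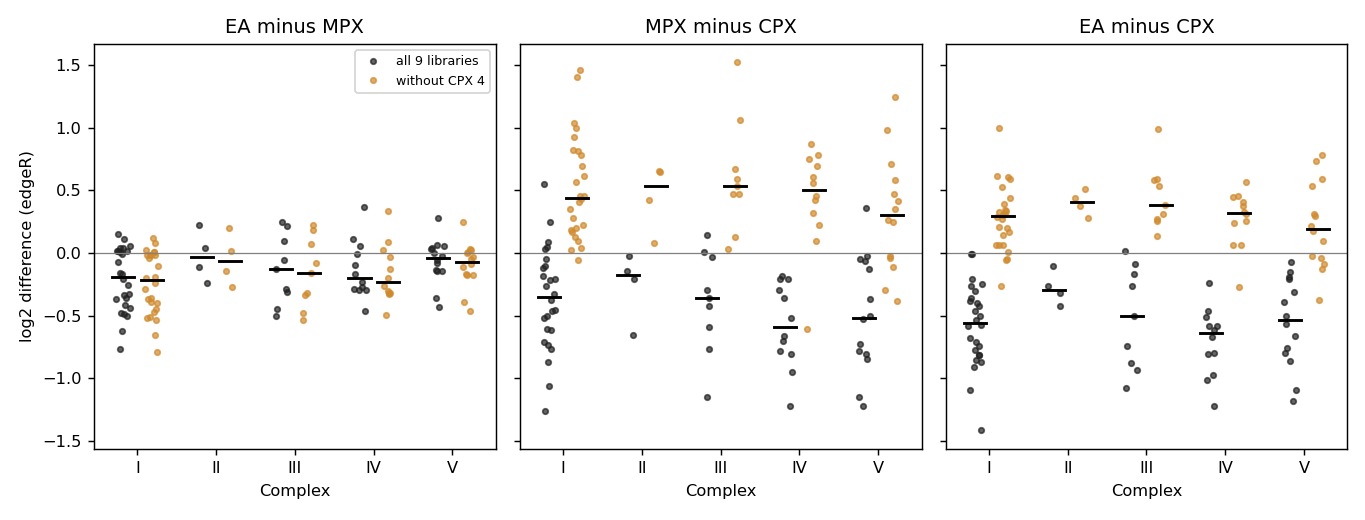
The edgeR log2 difference of each subunit (vertical axis) by complex (horizontal axis) in the 3 comparisons, from all 9 libraries (black) and without CPX 4 (orange), with a line at each median. Leaving out CPX 4 takes the medians against CPX from below to above 0 in each complex and leaves EA minus MPX little changed.

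No subunit passed the test against CPX. In MPX minus CPX, edgeR called 0 of 66 subunits and 0% of all genes, the smallest adjusted p of a subunit being 0.362, and DESeq2 called 0 subunits and 5.1% of the genes it tested. At an unadjusted p under 0.05, 3 subunits were lower (4.55%, against 8.21% of all genes) and 0 higher (4.98% of all genes). No subunit had all MPX libraries below (7.71% of all genes) or above (8.46% of all genes) those of CPX. In EA minus CPX, edgeR called 0 subunits and 0% of all genes, with a smallest adjusted p of 0.997, and DESeq2 called 0 subunits and 0.127% of genes. Unadjusted p-values under 0.05 were found for 1 subunit lower (Atp5mpl, against 2% of all genes) and 0 higher (0.96% of all genes). All EA libraries lay below all CPX libraries for 1 subunit, Atp5h of the complex V stalk (5.08% of all genes), and above them for 0 (2.1% of all genes). At the same unadjusted threshold without CPX 4, 24 subunits were higher in MPX than in CPX (36.4%, against 7.43% of all genes) and 8 higher in EA than in CPX (12.1%, against 1.44%). Without CPX 6, 18 were lower in MPX (27.3%, against 8.51% of all genes) and 24 lower in EA (36.4%, against 12%). Without CPX 8, edgeR called 168 genes in MPX minus CPX (4.24% of all), of which 1 was a subunit, Cox7a2l (log2 difference -1.26, edgeR adjusted p = 0.036). Over all settings tried, the adjusted p of Cox7a2l in that comparison ran from 0.036 to 0.807.

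Ndufb9, Cox6c and Uqcrh were each among the 2 subunits of their complex with the smallest unadjusted p in both comparisons with CPX. They also had the largest CPX 4 levels over the median of the other 8 libraries (5.51-, 5.21- and 4.52-fold). The median of that fold over the 66 subunits was 2.68, so these genes show the pattern at its strongest and not a typical subunit. Ndufb9 was 352, 39.3 and 84.8 CPM in CPX, 71.4, 61.7 and 66.4 CPM in MPX and 73.4, 49.2 and 56.2 CPM in EA, a log2 difference of -1.26 (SE 0.68) for MPX minus CPX and -1.41 (SE 0.68) for EA minus CPX. Cox6c was 937, 152 and 202 CPM in CPX, 203, 166 and 187 CPM in MPX and 216, 165 and 173 CPM in EA (log2 differences -1.22, SE 0.62, and -1.22, SE 0.62). Uqcrh, the hinge protein of complex III, was 616, 146 and 96.9 CPM in CPX, 143, 115 and 130 CPM in MPX and 164, 126 and 160 CPM in EA (-1.15, SE 0.61, and -0.93, SE 0.61). In all 3 genes CPX 4 stood far above every other library, and CPX 6 and CPX 8 lay much nearer to the MPX and EA values.

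Ndufs4, which helps hold the NADH-binding module on complex I, was 228, 58.3 and 79.4 CPM in CPX, 73.5, 70.2 and 71.8 CPM in MPX and 77.1, 49.2 and 45.3 CPM in EA, with an EA minus CPX difference of -1.09 (SE 0.48). Set over the large core subunit Ndufs1, the ratio was 0.992, 0.563 and 0.481 in CPX, 0.462, 0.531 and 0.425 in MPX and 0.349, 0.319 and 0.373 in EA. These ratios were lower in each EA library than in any MPX or CPX library, although the pair was set side by side after its values were seen.

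In complex II, too, CPX 4 was the highest library. Sdha was 1090, 349 and 577 CPM in CPX and Sdhb 479, 133 and 200 CPM, with MPX minus CPX differences of -0.15 (SE 0.43) and -0.65 (SE 0.45). The anchor Sdhd was 370, 95.7 and 126 CPM in CPX, 164, 165 and 184 CPM in MPX and 189, 150 and 136 CPM in EA. Its MPX minus CPX difference was -0.21 (SE 0.46), so that CPX 4 lay above and both other CPX libraries below every MPX and EA library.

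A few subunits did not share the low value of CPX 6. Its level was the second highest of 9 libraries for 3 subunits, Cox7a2l, Atp5g2 and Atp5mpl, the same 3 that had an unadjusted p under 0.05 in MPX minus CPX. Cox7a2l (chr17:83501919-83514333, minus strand, mm10) was 385, 320 and 132 CPM in CPX, 163, 128 and 143 CPM in MPX and 157, 188 and 215 CPM in EA. Its MPX minus CPX difference was -0.95 (SE 0.37, edgeR adjusted p = 0.363). Its paralog Cox7a2, a structural subunit of complex IV, was 508, 71.4 and 104.3 CPM in CPX, 141, 122 and 129 CPM in MPX and 131, 106 and 112 CPM in EA. Cox7a2l over Cox7a2 was 0.757, 4.48 and 1.26 in CPX, 1.15, 1.05 and 1.10 in MPX and 1.20, 1.77 and 1.93 in EA. The ratio of EA exceeded that of MPX in every library, CPX 6 had the highest ratio and CPX 4 the lowest.

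The genes for the ring protein of complex V also differed from each other. Atp5g2 (chr15:102662864-102672352, minus strand, mm10) was 266, 139.5 and 92.2 CPM in CPX, 109, 81.2 and 86.9 CPM in MPX and 115, 97.5 and 123 CPM in EA. Atp5g3 (chr2:73908447-73911326, minus strand, mm10) was 584, 141.5 and 200.3 CPM in CPX, 368, 414 and 403 CPM in MPX and 361, 283 and 235 CPM in EA. Both encode the same mature ring protein and differ in the import signal, and the third gene, Atp5g1, was not analysed here. Atp5g2 over Atp5g3 was 0.456, 0.986 and 0.461 in CPX, 0.295, 0.196 and 0.216 in MPX and 0.320, 0.345 and 0.524 in EA. The MPX libraries therefore had the lowest 3 ratios, the EA libraries lay above each of them, and CPX 6 had the highest. The MPX minus CPX differences were -0.85 (SE 0.36) for Atp5g2 and 0.36 (SE 0.49) for Atp5g3.

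Atp5mpl, a small protein bound to complex V (chr12:111961375-111966977, minus strand, mm10), was 247, 93.7 and 60.3 CPM in CPX, 57.1, 53.8 and 61.3 CPM in MPX and 64.2, 46.5 and 66.8 CPM in EA. Its differences were -1.22 (SE 0.47, edgeR adjusted p = 0.362) for MPX minus CPX and -1.18 (SE 0.47, edgeR adjusted p = 0.997) for EA minus CPX.

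**Figure D4:**
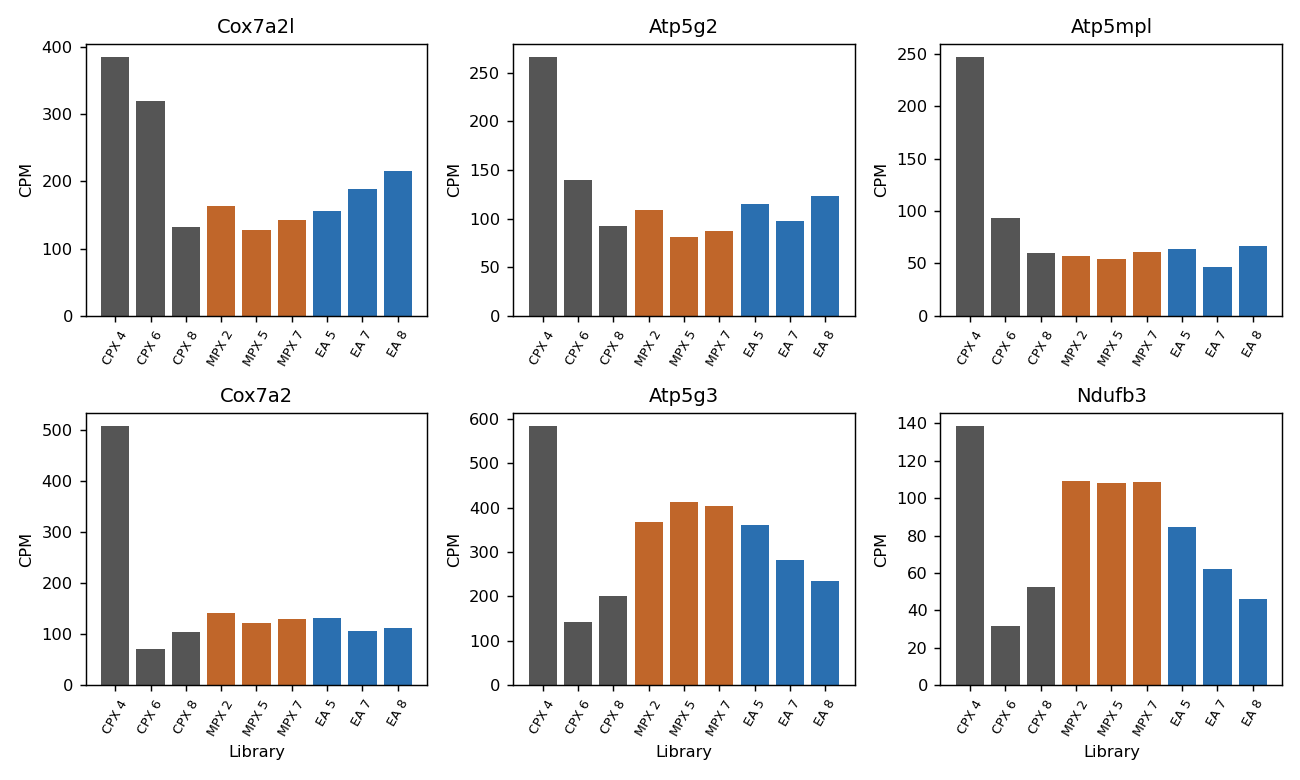
CPM (vertical axes, from 0) of 6 subunits in each library (horizontal axes), with CPX bars grey, MPX bars orange and EA bars blue. Cox7a2l, Atp5g2 and Atp5mpl have their second highest bar in CPX 6, where Cox7a2, Atp5g3 and Ndufb3 have their lowest.

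Per kilobase of the authors' gene length, on a CPM scale averaged over 9 libraries, levels spanned a wide range within each complex. In complex I they ran from 16.8 for Ndufab1, the acyl carrier protein of mitochondria, to 185 for Ndufa2, with a median of 69.2. Complex II ran from 55.4 for Sdhc to 154 for Sdha, and complex III from 81.6 for Uqcrc1 to 241 for Uqcr10. The widest range was in complex IV, from 43.6 for Cox5a to 840 for Cox8a, and complex V ran from 23.9 for Atp5l to 429 for Atp5b. Cycs stood at 40.1. Lengths come from the table and may include exons that these cells do not use, and 30 of the 66 genes overlap another annotated gene, 23 of them one on the other strand. The strand setting bears on those 23, and how reads shared by overlapping genes were counted bears on all 30. Neither is known, so those 30 levels are uncertain, with Ndufb9, Cox6c and Uqcrh among them.

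The mitochondrially encoded subunits of the same complexes were set beside the nuclear ones, with 10 of 13 in the table. Their summed CPM over that of the 66 nuclear subunits was 4.68, 4.17 and 4.98 in CPX, 2.89, 3.39 and 2.92 in MPX and 3.18, 2.77 and 2.68 in EA. Each CPX library had a higher ratio than any MPX or EA library, CPX 4 and CPX 6 included, and the MPX and EA ranges overlapped. Of the 10, 10 were lower in MPX than in CPX, by a median of -1.01 (log2), and 10 were lower in EA than in CPX (median -1.28). Without CPX 4 these medians were -0.05 and -0.43, and without CPX 6 they were -1.37 and -1.66. Unadjusted edgeR p-values under 0.05 were found for 2 and 4 of them, all lower (against 8.21% and 2% of all genes), and adjusted ones for 0 (0% of all genes). In EA minus MPX, 9 of 10 were lower (median -0.27, 0 past either threshold).

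Other mitochondrial genes were read from lists. The 14 enzymes of the citric acid cycle had median differences of -0.03 for EA minus MPX, 0.06 for MPX minus CPX and -0.08 for EA minus CPX, with 0 past the adjusted threshold in each. The differences from CPX were 0.40 and 0.35 without CPX 4, and -0.20 and -0.42 without CPX 6, so their sign turned on the library left out. Their mean in CPX 4 was 0.67 above their means over 9 libraries, against 1.33 for the nuclear subunits, and in CPX 6 it was -0.80 against -0.63. For 18 listed mitochondrial carriers, channels and import proteins of 23 the medians were -0.03, -0.27 and -0.40, with 0 past the adjusted threshold, and the CPX 4 mean was 0.92. Against CPX the medians turned to 0.24 and 0.10 without CPX 4, and were -0.45 and -0.55 without CPX 6. Of 17 regulators of mitochondrial biogenesis only Yy1 and Gabpa were in the table, and of 49 assembly factors only Coa5, Lrpprc and Atpaf2. Both stood highest in CPX 6, Yy1 at 209 CPM and Gabpa at 99.6 CPM, and in CPX 4 they were 135 and 66.7 CPM.

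Genes of other functions moved with the same libraries, and their part in the results was not tested. Over the 74 cytosolic ribosomal proteins the mean was 1.10 in CPX 4 and 1.16 in CPX 6, where the respiratory subunits were at 1.33 and -0.63. The adipocyte markers were at 0.97 in CPX 4, -2.40 in CPX 6 and -0.50 in EA 8, and both this list and the subunits had their lowest mean in CPX 6. The 12 listed B cell markers of 15 were at -2.35 in CPX 4, 4.44 in CPX 6 and between 1.80 and 3.26 in EA, against -3.34 to -2.19 in MPX. None of 19 muscle markers or 11 epididymis and testis markers was in the table, and of 16 brown and beige fat genes 1 was, Slc36a2.

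**Figure D5:**
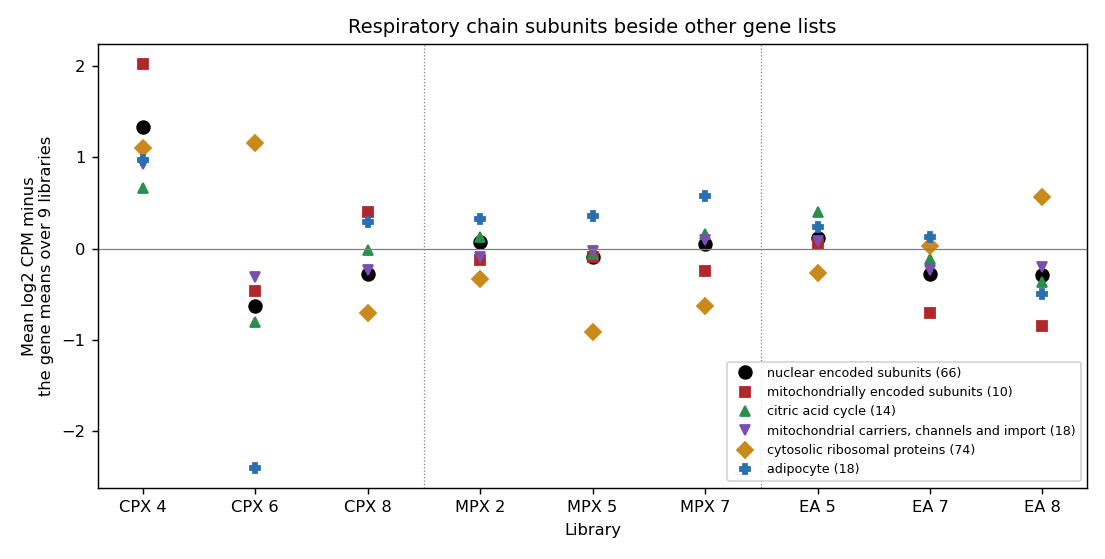
Mean log2 CPM of 6 gene lists minus the genes' means over 9 libraries (vertical axis) in each library (horizontal axis), with the number of listed genes in brackets and dotted lines between groups. The respiratory subunits are at 1.33 in CPX 4 and at -0.63 in CPX 6, where ribosomal proteins are at 1.10 and 1.16.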

How the data were processed

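Per the labels' protocols, an Illumina TruSeq RNA kit was used on the total RNA of each of the 9 libraries. Per the submitters' processing notes, HISAT2 2.0.5 and the build mm10 were used for alignment. How reads were assigned to genes, with which annotation and with or without strand, is not given in the sources used here. The authors deposited unnormalised counts for each gene and library, as the column names and whole values show. Rows run from the gene with 3653827 counts in all down to one with 8471, where the text held here breaks off, and 3958 genes are in it. Less abundant genes were not analysed here. For 1 of the 66 subunits values are not reported singly here. For 11 genes the name was restored from the gene ID. All 66 IDs were found in GENCODE M21, 60 with the same coordinates.

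The test was edgeR 4.0.16 (R 4.3.3) on 1 fit of all 9 libraries, with TMM factors, filterByExpr (which kept 3958 genes) and robust quasi-likelihood estimation. Benjamini-Hochberg adjustment ran over all genes of a comparison. The common dispersion was 0.161, a coefficient of variation of 40.2%. The SE is the difference over the square root of F. The members and gene lists were chosen with earlier results of these data known. Named subunits are those past the threshold, the 2 with the smallest p per complex and comparison, the most and least abundant per length, and a list of subunits and isoforms set by role; others are named where their ranges or ratios are given, after their values were seen. The alternatives tried were 3 other scalings, 2 other filters, DESeq2 1.42.0, voom in limma 3.58.1, estimation that is not robust, fits of the compared groups alone, fits without each library in turn, and the number in the title as a replicate block. Within groups, counts of any 2 libraries differed by more than sampling noise (chi-square per degree of freedom at least 71.5). The test was checked on simulated counts for EA minus MPX, drawn with the spread of this fit. It recovered 9 of 67 genes changed 2-fold (13.4%), 47 of 67 changed 4-fold and 60 of 66 changed 8-fold, with 6 false calls. A count of 0 past the threshold therefore does not show that changes of 2-fold or less are absent, and some larger changes can be missed too.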

Additional observations from a re-analysis of the deposited data

How the results depend on the processing

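The count of subunits past the threshold stayed at 0 in each comparison under the other scalings, both filters, DESeq2, voom, estimation that is not robust, fits of the compared groups alone and the replicate block. The filters removed no gene, so they say nothing about stability. With 1 library left out, that count ran from 0 to 1 for MPX minus CPX, the 1 being Cox7a2l without CPX 8. Apart from the median of all 66 subunits in EA minus MPX, which stayed below 0, the values below are log2 differences of results that turned sign under a setting or, for Cox7a2l, passed the threshold; for settings other than a library left out, the cause was not tested.

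Leaving out 1 library in turn gave, for EA minus MPX, -0.28 to -0.055 for all 66 subunits, -0.22 to 0.089 for complex II, -0.39 to 0.023 for complex III and -0.12 to 0.034 for complex V. For MPX minus CPX the ranges were -0.67 to 0.45 for all 66 subunits, -0.64 to 0.44 for complex I, -0.50 to 0.53 for complex II, -0.68 to 0.54 for complex III, -0.88 to 0.50 for complex IV, -0.80 to 0.30 for complex V, -1.72 to 0.13 for Ndufb9, -0.98 to 0.080 for Sdhb, -0.54 to 0.65 for Sdhd, -1.54 to 0.13 for Uqcrh, -1.22 to 0.47 for Uqcrb, -1.26 to -0.61 for Cox7a2l, -1.62 to 0.098 for Cox6c and -0.33 to 0.92 for Cycs. For EA minus CPX they were -0.89 to 0.31 for all 66 subunits, -0.93 to 0.29 for complex I, -0.63 to 0.41 for complex II, -0.96 to 0.38 for complex III, -1.03 to 0.32 for complex IV, -0.81 to 0.20 for complex V, -0.76 to 0.28 for Sdhb, -0.66 to 0.51 for Sdhd, -1.54 to 0.14 for Uqcrb, -1.35 to 0.31 for Uqcrh, -1.64 to 0.063 for Cox6c, -1.39 to 0.061 for Cox7c and -0.71 to 0.52 for Cycs. In both comparisons with CPX the upper ends of the medians came without CPX 4.

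With CPX 8 as the single CPX library, which was chosen after seeing the data and assumes that it varies like the other groups, MPX minus CPX was 0.28 for all 66 subunits, 0.28 for complex I, 0.21 for complex II, 0.31 for complex III, 0.32 for complex IV, 0.17 for complex V, 0.46 for Sdhd, 0.44 for Uqcrh, 0.16 for Cox7a2l and 0.024 for Atp5g2. EA minus CPX was then 0.11 for all 66 subunits, 0.086 for complex I, 0.085 for complex II, 0.26 for complex III, 0.13 for complex IV, 0.12 for complex V, 0.0071 for Sdhb, 0.32 for Sdhd, 0.62 for Uqcrh and 0.36 for Cycs. Ndufa4 placed in complex I, also chosen later, turned no median. Column sums alone gave 0.060 for complex II and 0.059 for complex V in EA minus MPX, 0.040 for complex II and 0.025 for Sdhd in MPX minus CPX and 0.025 for complex II and 0.011 for Sdhd in EA minus CPX, and limma voom gave 0.024 for Sdhd in MPX minus CPX.

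The labels do not say whether the numbers in the titles pair the libraries, and the few correlations that follow cannot decide it. Deviations from the group means correlated at 0.02 (number 5, MPX and EA), 0.13 (number 7, MPX and EA) and -0.51 (number 8, CPX and EA), and CPX and MPX share no number. A fit with the replicate block has 1 residual degree of freedom. It gave -0.069 for all 66 subunits and 0.097 for complex II in EA minus MPX, 0.019 for all 66 subunits, 0.088 for complex IV, 0.12 for complex V, 0.15 for Sdhd, 0.49 for Uqcrh, 0.36 for Cox7a2l, 0.22 for Atp5mpl and 0.082 for Atp5g2 in MPX minus CPX and 0.066 for complex IV, 0.15 for complex V, 0.10 for Sdhd, 0.72 for Uqcrh, 0.15 for Atp5mpl and 0.037 for Cycs in EA minus CPX, with 0 subunits past the threshold.

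The listed counts are not library depths, and subunits below the table's lower end could not be measured here. The coefficient of variation of 40.2% is that of the fit with CPX included. Fitted on EA and MPX alone, 84 genes passed the threshold in place of 0, and the subunits called stayed at 0.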

Other observations

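Outside the respiratory chain, the genes whose log2 CPM over 9 libraries correlated best with the mean of the 66 subunits were Swi5, Bag1, Ube2m, Npepl1, Eif3l, Aurkaip1, Chchd2, Dnajc15, Mrpl17 and Cops6, with Pearson correlations from 0.971 to 0.996. Chchd2, Aurkaip1, Dnajc15 and Mrpl17 encode mitochondrial proteins, whereas Bag1, Ube2m, Eif3l and Cops6 act in chaperone, ubiquitin-like and translation pathways. Swi5, a DNA repair factor, led with 0.996 over 9 libraries and 0.976 without CPX 4. Its level was 304, 84.2 and 107.2 CPM in CPX, 131, 120.5 and 134 CPM in MPX and 136, 107.9 and 116 CPM in EA. Chchd2 was 1706, 310 and 479 CPM in CPX, 640.2, 639.8 and 713 CPM in MPX and 596, 540.1 and 489 CPM in EA. Without CPX 4 and CPX 6 the correlations of these 10 genes ran from 0.720 to 0.955. The points share libraries and scaling, and these values are a description.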
